A study of Rattus norvegicus with 93 samples.

Results

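The RT1 genes are the major histocompatibility genes of the rat. They were taken as all rows of the deposited table whose symbol starts with RT1-, which gave 48 genes of 38354, 38 of class I and 10 of class II by symbol. The samples are polyadenylated RNA of outbred rats from the rostromedial tegmental nucleus (RMTg), an inhibitory nucleus of the midbrain, sequenced in a study of avoidance learning. The labels put all 93 samples in a single group of this tissue and give no treatment, genotype, sex or age, and 92 samples have a column of values. Used here were the 49 libraries in which Nif3l1 took under 20% of the counts and LOC120093067 plus Zfp532 under 10%. The other libraries were 32 with a higher share of LOC120093067 and Zfp532 and 11 with a higher share of Nif3l1. All 6 genes of a list marking the inhibitory neurons of the RMTg were past the low-value filter, at a summed 597 to 1017 counts per 1000000 (CPM). Nothing in the labels says that rats were kept or processed together, so p-values measure the spread between these animals as they were handled.

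Class I molecules hold a heavy chain and the light chain beta-2 microglobulin (B2m), and show peptides from inside the cell to cytotoxic T cells and natural killer cells. Class II molecules hold an alpha and a beta chain, are assembled on the invariant chain (Cd74) and show peptides from taken-up material to helper T cells; the DM chains exchange the peptide and the DO chains hold DM back. In the rat, the classical class I genes lie in the RT1-A region, at 1 end of the complex beyond class II, and many non-classical class I genes lie in the C/E, N and M regions at the other side. In the brain, microglia and macrophages at vessels and borders are the usual source of class II.

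The members lay along 3.92 Mb of chromosome 20, with table positions between 984174 and 4907139, and all 48 positions equalled an end of the gene in RefSeq (GRCr8). In the 49 libraries, the members together took 0.0163% to 0.0344% of the counts, with a median of 0.0235%. Between 35 and 45 of the 48 were above 0 in a library. Library totals ran between 9.55 and 50.2 M estimated counts (M, 1000000), so that 3 counts stood for 0.0598 to 0.314 CPM. Of the members, 32 were past the low-value filter (log2(CPM + 1) of at least 1 in at least 10 libraries), 26 of class I and 6 of class II. The 12 class I and 4 class II genes that were not past it had medians of at most 0.554 CPM. RT1-M10-1, annotated as a long non-coding RNA, was listed at 0 in every library, and 6 members were listed at 0 in over 30 libraries. CPM values are not divided by transcript length, so levels below are compared between libraries and not between genes.

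**Figure D1:**
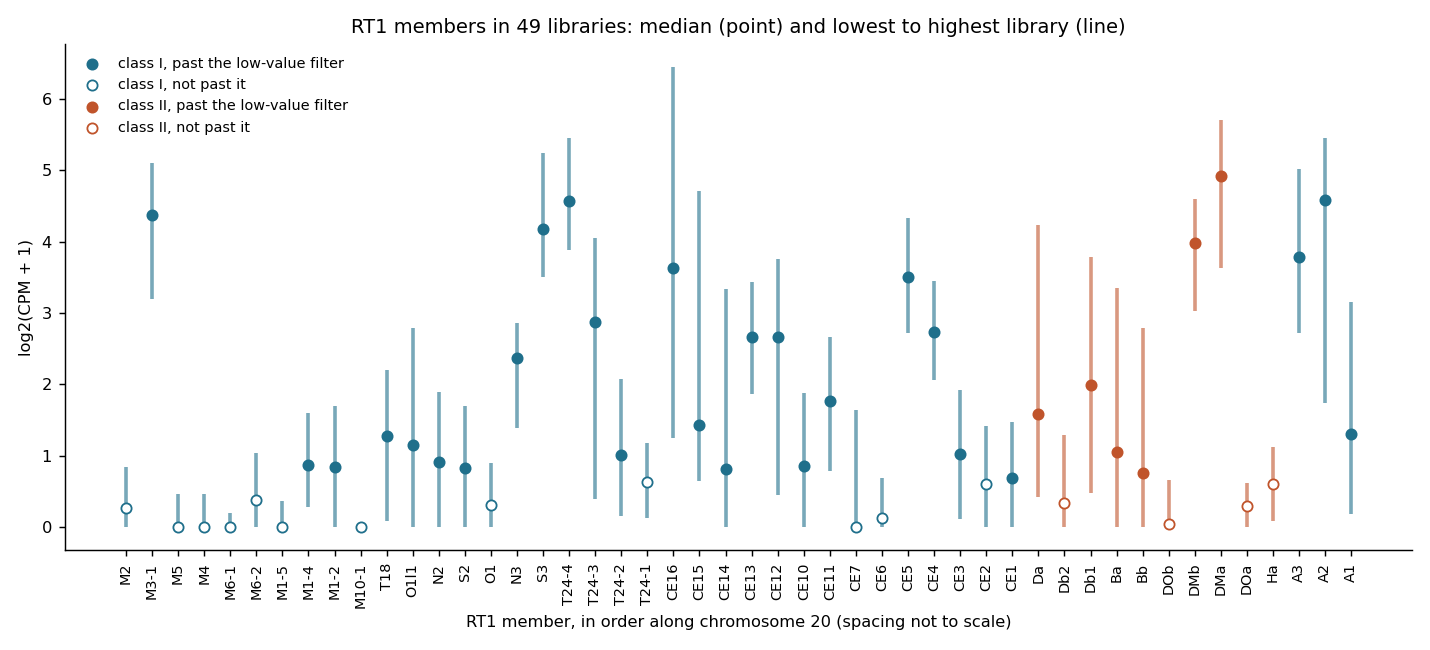
The plot of all members shows log2(CPM + 1) (vertical axis) for the 48 RT1 genes in order along chromosome 20 (horizontal axis); points are medians of 49 libraries, lines run from the lowest to the highest library, and open points mark the 16 genes not past the filter. RT1-CE16 has the longest line, from 1.37 to 86.1 CPM, while RT1-S3, RT1-T24-4 and RT1-CE4 have short ones.

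The counts are estimates, and reads that match several members are divided between them by the estimate. Of the class I estimates above 0 and under 200, 7.87% were whole numbers within 0.01, over 1233 values. Of the class II estimates, 66.1% were whole, over 363 values, and for RT1-Da, RT1-Ba and RT1-Bb every such value was. For RT1-CE15, RT1-CE5 and RT1-S3 none was. Values of single class I genes are therefore less certain than those of these class II genes. RefSeq spans of 15 member pairs also overlap, among 16 members, and the files do not say whether strand was used.

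The classical class I genes of the A region were read in every library. RT1-A2 had a lowest value of 2.35, a median of 23 and a highest of 42.6 CPM. RT1-A3 had 5.56, 12.8 and 31.3 CPM, and RT1-A1 had 0.136, 1.46 and 7.92 CPM. The highest library of RT1-A2 was thus 18.1 times its lowest, and that of RT1-A1 58.3 times.

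Among the non-classical class I genes, RT1-M3-1, whose mouse counterpart shows formylated peptides, ranged from 8.16 to 33.4 CPM with a median of 19.7. RT1-T24-4 ranged from 13.8 to 42.6 CPM with a median of 22.7. RT1-S3 ranged from 10.4 to 36.9 CPM with a median of 17. RT1-S3 and RT1-M1-4 had the smallest standard deviation (SD) of log2(CPM + 1) of the members past the filter, 0.32 each. RT1-M1-4 ranged from 0.221 to 2.04 CPM with a median of 0.821, where the pseudocount narrows the SD. Against genes of similar mean level, the SD of RT1-S3 was at percentile 72.6 and that of RT1-M1-4 at 54.1. The lowest such percentile among the members was 37.3, for RT1-CE13. At the low end, RT1-CE1 had a median of 0.612 CPM and was listed at 0 in 2 libraries.

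In class II, the median of RT1-DMa was 29.4 CPM (11.4 to 51) and that of RT1-DMb 14.8 CPM (7.12 to 23.2). The chains of the presenting molecules had wider ranges: RT1-Da, an alpha chain, had a median of 2.0 CPM (0.346 to 17.8), and RT1-Db1, its partner beta chain, 2.99 CPM (0.387 to 12.8). RT1-Ba, the alpha chain of the RT1.B molecule, had a median of 1.08 CPM (0 to 9.15), and the beta chain RT1-Bb 0.693 CPM (0 to 5.94). RT1-DOb and RT1-DOa, the chains of DO, had medians of 0.0329 and 0.231 CPM, and RT1-Ha of 0.515 CPM. The second beta chain RT1-Db2 had a median of 0.267 CPM, and none of these 4 was past the filter.

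RT1 genes varied more between rats than most genes of similar level. The median SD of log2(CPM + 1) was 0.49 over the 32 members and 0.29 over all 18749 genes past the filter. It was 0.47 in class I and 0.74 in class II. Measured against a trend of SD on mean level, 29 of the 32 members lay above the median of all genes, and 16 lay in the top 5%. The widest were RT1-CE16 (SD 1.70), RT1-CE15 (1.33), RT1-CE14 (0.97) and RT1-Da (0.97). Pearson's r of the members' levels with log10 of the library total lay between -0.14 and 0.31.

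RT1-CE16 and RT1-CE15 each fell into 2 levels with no library between them. Levels were called separated where a gene's sorted log2(CPM + 1) values held a gap of at least 1 with at least 5 libraries on each side. That held for 2 of the 32 members and for 0.203% of all genes past the filter (38 of 18749), and no test was made of it. RT1-CE15 stood at 10.004 to 25.2 CPM (median 12.9) in 16 libraries, against 0.566 to 2.47 CPM (median 1.45) in 33. RT1-CE16 stood at 6.85 to 86.1 CPM (median 28.6) in 34 libraries and at 1.37 to 2.76 CPM (median 2.12) in 15. RT1-CE14, which RefSeq lists as a miscellaneous RNA, had a smaller gap of 0.71, with 3.28 to 9.11 CPM (median 5.08) in 16 libraries and 0 to 1.62 CPM (median 0.605) in 33.

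The 3 genes are neighbours, at positions 3265548, 3283819 and 3305472, and their levels went together. The 16 libraries in the upper level of RT1-CE15 were the same 16 as for RT1-CE14, with no library upper for only one of them. All 16 were also in the upper level of RT1-CE16, which held 18 further libraries, and 15 libraries were in the lower level of all 3 genes. The same 16 libraries were moreover the 16 highest for RT1-CE16. Within them, the 4 libraries highest for RT1-CE15 (22.2 CPM and above, next below 16.98) were also the 4 highest for RT1-CE16, and 3 of the 4 were among the 4 highest for RT1-CE14. Levels of the 3 genes thus ran in steps: low for all, upper for RT1-CE16 alone, and upper for all 3.

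**Figure D2:**
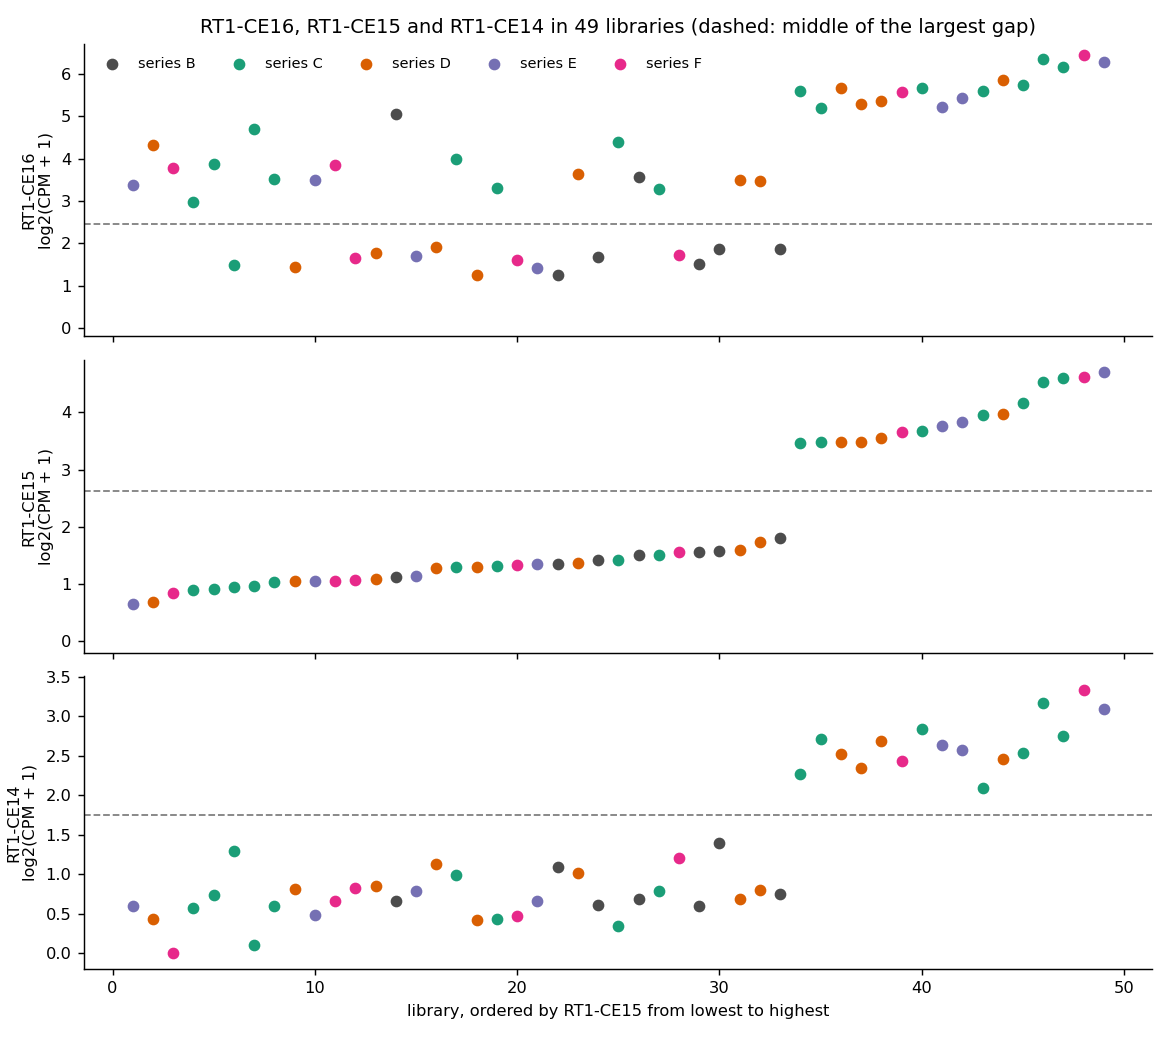
The plot of RT1-CE16, RT1-CE15 and RT1-CE14 shows log2(CPM + 1) (vertical axes, a panel for each gene) in 49 libraries ordered by RT1-CE15 (horizontal axis); each point is a library, colours are the identifier series and dashed lines mark the middle of the largest gap. The 16 libraries at the right are above the line in all 3 panels, and the other 33 are below it for RT1-CE15 and RT1-CE14 but on both sides for RT1-CE16.

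A correlation of these genes over all libraries is not given, since libraries fall into separate levels. Within the 16 upper libraries of RT1-CE15, its level and that of RT1-CE16 had r = 0.89 and Spearman's rho = 0.74 (permutation tests, two-sided, adjusted p = 0.00024 and 0.00672 over 12 such relations), and r = 0.82 once the 2 libraries most distant from the median of RT1-CE15 were left out. In the 33 lower libraries, which hold both levels of RT1-CE16, r was -0.28 (rho = -0.23, adjusted p = 0.132 and 0.211). Within the same 16 libraries RT1-CE15 and RT1-CE14 had r = 0.66 (rho = 0.54, adjusted p = 0.0104 and 0.0823), and r = 0.44 without the 2 farthest. RT1-CE14 and RT1-CE16 had r = 0.67 in the 16 upper libraries (rho = 0.46, permutation tests, adjusted p = 0.0104 and 0.1005). In the 33 lower libraries, again over both levels of RT1-CE16, their r was -0.45 (rho = -0.32, permutation tests, adjusted p = 0.0162 and 0.1005). Without the 2 farthest libraries these r were 0.38 and -0.41. The 33 libraries were 18 upper and 15 lower for RT1-CE16, so the r of -0.28 and -0.45 mix differences within and between its levels. Within the 15 lower libraries of RT1-CE16, its r was 0.29 with RT1-CE15 and 0.32 with RT1-CE14 (permutation tests, adjusted p = 0.303 and 0.259). These levels hold too few libraries of each series for values within series.

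Sample identifiers fall into number series whose meaning is not given, and 5 series (B to F) held 7, 16, 12, 7 and 7 of the libraries. The upper level of RT1-CE15 and RT1-CE14 held 0 of 7 libraries in B, 7 of 16 in C, 4 of 12 in D, 3 of 7 in E and 2 of 7 in F. The upper level of RT1-CE16 held 2 of 7 in B, 15 of 16 in C, 8 of 12 in D, 5 of 7 in E and 4 of 7 in F. Both levels of RT1-CE16 were thus present in every series.

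The same dividing values were carried over to the 32 libraries left out for their share of LOC120093067 and Zfp532. There RT1-CE16 was upper in 25 and lower in 7, with its own largest gap of 0.94 between 2.32 and 5.36 CPM. RT1-CE15 was upper in 2 and RT1-CE14 in 6 of the 32: 1 library was upper for both, 1 for RT1-CE15 alone and 5 for RT1-CE14 alone. Totals of those 32 libraries were 2.29 to 13.7 M.

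Starts of RT1-CE16 and RT1-CE15 are shown because their levels separated. Both lie on the minus strand of GRCr8 (RefSeq), at chr20:3265549-3265693 and chr20:3283820-3284019, and are printed 5′ to 3′ up to the base before the annotated gene. Capitals mark a match to an NF-kappaB site (GGG and TTCCC with any 2 letters between them) in RT1-CE16 and an inverted CCAAT box (ATTGG or CCAAT) in RT1-CE15.
RT1-CE16: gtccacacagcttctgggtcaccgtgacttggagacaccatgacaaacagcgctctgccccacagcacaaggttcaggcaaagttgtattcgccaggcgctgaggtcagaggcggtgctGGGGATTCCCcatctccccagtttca
RT1-CE15: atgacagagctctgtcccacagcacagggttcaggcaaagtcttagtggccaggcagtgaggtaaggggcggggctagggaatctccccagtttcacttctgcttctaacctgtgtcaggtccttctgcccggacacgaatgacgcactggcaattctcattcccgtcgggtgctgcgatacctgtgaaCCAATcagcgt
Within its 300-base window RT1-CE16 had the NF-kappaB letters and RT1-CE15 did not. The printed stretches end 106 and 50 bases before the start site of the window, which lies inside the annotated gene. Beyond them RT1-CE16 had CCAAT 12 bases before that site and RT1-CE15 had ATTGG 39 bases before it. Both windows thus hold the letters of the CCAAT box. RT1-CE14 has no window in the table used.

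Genes most like these 3 were sought among all genes past the filter outside RT1, by r across the 49 libraries, used only to put genes in order. For RT1-CE16 the first named genes were Ddx39b (r = 0.69), an RNA helicase gene 324 kb away, Rnf39 (r = -0.45) and Vwa7 (r = -0.45). For RT1-CE15 they were Neu1 (r = -0.58), a sialidase gene 623 kb away, Ddx39b (r = 0.58) and Kcna4 (r = -0.47). For RT1-CE14 they were Neu1 (r = -0.60), Ddx39b (r = 0.51) and Apom (r = 0.49), which codes for apolipoprotein M. Of the 50 genes most like each, 15 for RT1-CE16, 12 for RT1-CE15 and 11 for RT1-CE14 lay between the first and last RT1 member, where 0.582% of all genes tested outside RT1 lie. The same count was 10 for RT1-A2, whose most alike gene was Tapbp (r = 0.65), the class I loading factor 95.2 kb away. It was 5 for RT1-T24-3, and 0 for RT1-S3 and RT1-Da.

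The 4 chains of the class II presenting molecules were higher in libraries with more Cd74, the invariant chain on which they are assembled, and no class I member was past the threshold for such a slope. Cd74 ranged from 3.25 to 85.5 CPM over the 49 libraries, with a median of 13.7. Slopes of each gene's log2(CPM + 1) were fitted with limma per SD of the Cd74 level (1.11 on the log2 scale), over all 18749 genes, with Benjamini-Hochberg adjustment. Of the 32 members, 4 had an adjusted p under 0.05, all with a positive slope, while 0.277% of all genes but Cd74 did (0.267% with a positive slope). The slope was 0.85 ± 0.07 (SE, n = 49) for RT1-Da (adjusted p = 1.63e-14), 0.65 ± 0.07 for RT1-Ba (3.29e-09), 0.64 ± 0.08 for RT1-Db1 (1.84e-07) and 0.51 ± 0.06 for RT1-Bb (6.27e-08).

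The DM chains had slopes on Cd74 of 0.11 ± 0.06 for RT1-DMa (adjusted p = 0.381) and 0.11 ± 0.05 for RT1-DMb (0.304). Without the library whose identifier had been corrected, the class I gene RT1-CE5 was past it as well (0.19, adjusted p = 0.0482, against 0.18 and 0.0916 with it). In the 32 libraries of high LOC120093067 and Zfp532 share, RT1-DMa (0.74, adjusted p = 0.000989) and RT1-DMb (0.48, 0.00794) were past it beside RT1-Da and RT1-Db1, where 22% of all genes were. Over the 26 class I members the median slope was 0.08, against 0.57 over the 6 class II members and 0.02 over all genes. Within each of the 5 series the slope kept its sign, between 0.73 and 1.08 for RT1-Da, 0.20 and 0.65 for RT1-Db1, 0.60 and 0.92 for RT1-Ba, and 0.35 and 0.68 for RT1-Bb. Of the 11 class II pathway genes past the filter, which include the RFX and NF-Y factors and lysosomal proteases, none but Cd74 was past the threshold. Cd74 passes by construction, being set against itself. Ciita, the class II transactivator, was listed at 0 in 29 libraries and was not past the filter.

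**Figure D3:**
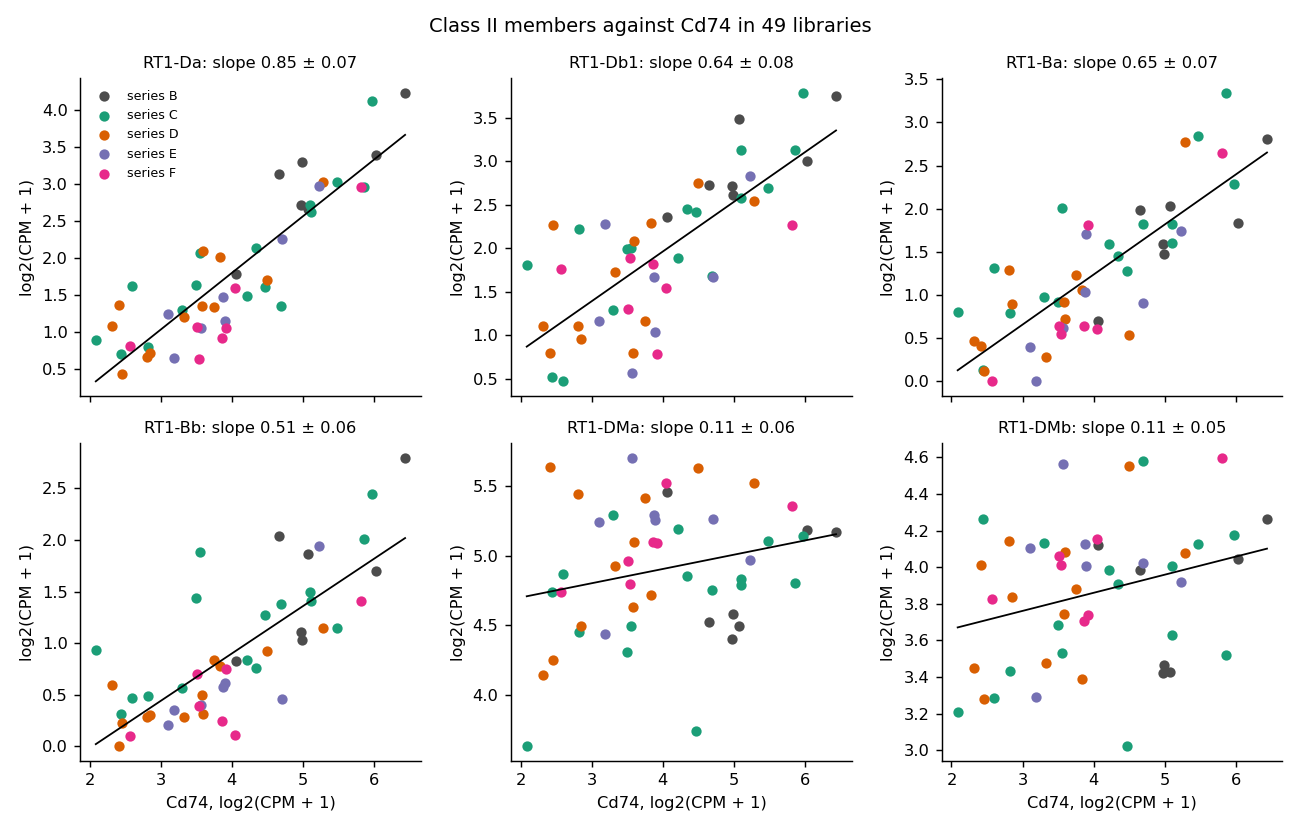
The plot of class II members against Cd74 shows log2(CPM + 1) of 6 genes (vertical axes, each panel with its own scale) against log2(CPM + 1) of Cd74 (horizontal axes) in 49 libraries; points are libraries, colours are identifier series, lines are the fitted slopes, and titles give the slope ± SE per SD of Cd74. The 4 presenting chains climb along the line, while RT1-DMa and RT1-DMb are spread about nearly flat lines with slopes of 0.11.

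Markers of the cells that could carry these molecules were read beside them. Of the 10 microglia markers, all past the filter at a summed 336 to 632 CPM, only Cx3cr1 had a slope on Cd74 past the threshold (0.20 ± 0.04, adjusted p = 0.00853). None of the 5 perivascular macrophage markers (summed 6.13 to 16.3 CPM), the 6 endothelial markers (148 to 272 CPM) or the 2 dendritic cell markers past the filter had one. All 10 microglia markers had a slope on Cd74 above 0, with a median of 0.10 against 0.02 over all genes. An unadjusted p under 0.05 (limma) was reached by 5 of them and by 15.2% of all genes. No marker of the perivascular macrophage, endothelial or dendritic cell lists reached it. The T and natural killer cell markers summed to 0 to 1.73 CPM and the B cell markers to 0 to 0.725 CPM, and none was past the filter. Cd3e was listed at 0 in 28 libraries and Cd79a in 32. In tissue RNA, more cells of a type and more RNA per cell cannot be told apart.

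Outside RT1, the genes most like RT1-Da were Cd74 (r = 0.88), Fgr (r = 0.61), a kinase gene of myeloid cells, and Tyrobp (r = 0.56), an adaptor of microglia receptors. The starts of the 4 chains are shown because the chains moved together. RT1-Da and RT1-Ba are on the plus strand at chr20:4515193-4515392 and chr20:4576857-4577056, and RT1-Db1 and RT1-Bb on the minus strand at chr20:4560183-4560382 and chr20:4604119-4604318 (GRCr8, RefSeq). Capitals mark the Y box letters ATTGG or CCAAT and, in RT1-Ba, the NF-kappaB letters.
RT1-Da: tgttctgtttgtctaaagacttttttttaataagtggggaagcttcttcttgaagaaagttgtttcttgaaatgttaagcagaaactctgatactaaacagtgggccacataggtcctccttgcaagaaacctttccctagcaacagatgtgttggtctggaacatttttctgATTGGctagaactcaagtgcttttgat
RT1-Db1: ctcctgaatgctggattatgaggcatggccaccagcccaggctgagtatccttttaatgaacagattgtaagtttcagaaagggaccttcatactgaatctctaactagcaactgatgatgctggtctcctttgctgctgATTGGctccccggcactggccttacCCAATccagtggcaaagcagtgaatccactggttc
RT1-Ba: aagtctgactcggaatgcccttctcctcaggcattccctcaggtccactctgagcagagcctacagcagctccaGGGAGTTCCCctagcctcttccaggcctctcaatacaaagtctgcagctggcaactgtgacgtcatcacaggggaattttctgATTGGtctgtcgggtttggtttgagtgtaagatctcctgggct
RT1-Bb: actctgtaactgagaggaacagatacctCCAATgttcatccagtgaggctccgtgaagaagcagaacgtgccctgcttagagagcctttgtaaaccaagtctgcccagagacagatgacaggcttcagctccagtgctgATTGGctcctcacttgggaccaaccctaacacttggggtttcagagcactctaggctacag
Distances were counted from the start site of each gene's 300-base window. The Y box letters in the forward orientation began 49 bases before it in RT1-Da, 80 in RT1-Db1, 43 in RT1-Ba and 61 in RT1-Bb. The printed stretches end 23 bases before that site in RT1-Da, 21 in RT1-Db1 and 1 in RT1-Ba and RT1-Bb. In RT1-Da and RT1-Db1 the site thus lies inside the annotated gene.

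On the microglia score, 5 of the 32 members had a slope past the threshold, all positive, while 4.1% of all genes outside the score did (3.47% with a positive slope). The score was the mean z-scored level of 10 microglia genes, none of them RT1. Of these genes Aif1 lies between RT1 members, at 3651435 on chromosome 20, and slopes on a score without it were not fitted. RT1-DMb had a slope of 0.20 ± 0.05 (SE, n = 49, log2 per SD of the score; limma, adjusted p = 0.00637) and RT1-DMa of 0.24 ± 0.06 (0.00734). RT1-S3 had 0.15 ± 0.04 (0.0168), RT1-CE5, a non-classical class I gene, 0.18 ± 0.05 (0.0205), and RT1-Da 0.41 ± 0.12 (0.0359). In all, 28 of the 32 slopes were above 0, as were 10406 of the 18749 over all genes. The median slope was 0.11 over the members and 0.01 over all genes.

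These slopes differed in how firmly they held. Those of RT1-DMb and RT1-DMa were positive in each series (0.21 to 0.30 and 0.21 to 0.38) and stayed past the threshold with series as a covariate. With series as a covariate the slope of RT1-CE5 was 0.13 (adjusted p = 0.0816) and that of RT1-Da 0.27 (0.171), both past the threshold no longer. Once the 2 libraries most distant from the median score were left out, RT1-S3 (0.13, adjusted p = 0.0743), RT1-CE5 (0.14, 0.109) and RT1-Da (0.27, 0.202) were not past it. Within series the slope of RT1-S3 was between 0.14 and 0.17 in B, C and D, -0.0015 in E and 0.01 in F. That of RT1-CE5 was between 0.10 and 0.23 in B, C and D, -0.08 in E and -0.17 in F, and that of RT1-Da lay between 0.04 and 1.11.

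Other genes of antigen handling had slopes on the same score. Of those named here, Psmb8, Psmb9 and Tap1 also lie between RT1 members on chromosome 20 (at 4657049, 4668952 and 4668543). Of the 17 class I pathway genes, 4 passed, all positive: the immunoproteasome subunits Psmb8 (0.19 ± 0.04, limma adjusted p = 0.0026) and Psmb9 (0.19 ± 0.04), and the proteasome activators Psme1 (0.09 ± 0.03) and Psme2 (0.07 ± 0.02). Of the 11 class II pathway genes, 5 passed, all positive: Cd74 (0.54 ± 0.13), the proteases Ctss (0.18 ± 0.03), Lgmn (0.12 ± 0.03) and Ctsl (0.09 ± 0.03), and the thiol reductase Ifi30 (0.15 ± 0.03). Neither B2m (0.07 ± 0.05, adjusted p = 0.348) nor Tap1 (0.08 ± 0.05, 0.396), a chain of the peptide transporter, was past the threshold.

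RT1-S3 was the only member with a slope on the interferon score past the threshold, which 0.101% of all genes outside the score passed (0.0908% with a positive slope). The score was the mean z-scored level of 21 interferon-induced and interferon pathway genes. The slope of RT1-S3 was 0.21 ± 0.04 (SE, n = 49; limma, adjusted p = 0.000295), and it was positive in each series, between 0.16 and 0.28. RT1-T24-4, 13.9 kb from it, had 0.16 ± 0.04 (adjusted p = 0.12), and 0.23 (0.0142) once the 2 libraries most distant from the median were left out. An unadjusted p under 0.05 was reached by 5 members (15.6%) and by 9.16% of all genes. Of the 17 class I and 11 class II pathway genes, none passed, with 5 and 4 at an unadjusted p under 0.05. The genes most like RT1-S3 outside RT1 were Irf7 (r = 0.70), Usp18 (r = 0.63) and Lgals3bp (r = 0.62), all known as interferon-induced, of which Irf7 and Usp18 are in the score.

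The start of RT1-S3 is shown for that slope. It lies on the plus strand at chr20:2675278-2675462 (GRCr8, RefSeq), and capitals mark a match on the opposite strand to a pair of GAAA with any 2 letters between, the core letters of the interferon-stimulated response element.
RT1-S3: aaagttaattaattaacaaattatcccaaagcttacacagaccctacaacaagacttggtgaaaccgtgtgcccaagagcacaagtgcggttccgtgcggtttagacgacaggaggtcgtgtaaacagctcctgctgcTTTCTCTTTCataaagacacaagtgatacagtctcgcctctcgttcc
These letters were in 3.92% of all 33469 promoter windows and in 3 of the 42 RT1 windows, those of RT1-S2, RT1-N3 and RT1-S3.

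The level of B2m, the light chain of class I, ranged from 117 to 549 CPM with a median of 310, and 36.6% of all genes but B2m had a slope on it past the threshold. Among the 32 members only RT1-T24-2, annotated as a long non-coding RNA, did, with -0.15 ± 0.06 (SE, n = 49; limma, adjusted p = 0.0383), where 24.5% of those genes had a negative one. With series as a covariate it was -0.13 (adjusted p = 0.0871). Of the A genes, RT1-A3 had 0.17 ± 0.07 (adjusted p = 0.0624), RT1-A1 0.12 ± 0.10 (0.357) and RT1-A2 0.01 ± 0.11 (0.939). RT1-A3 was past the threshold without the 2 libraries most distant from the median of B2m (0.28, adjusted p = 0.0492, where 16.3% of all genes passed) and with median ratio scaling (0.22, 0.0174, where 35.04% did). The members' share was thus below that of all genes. Of the 17 class I pathway genes 5 passed, all positive, but B2m does so by construction, being set against itself. The others were Canx (0.13) and the proteasome subunits Psmb8, Psmb9 and Psmb10 (0.12 to 0.14). Of the 11 class II pathway genes 2 passed with a positive and 3 with a negative slope.

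**Figure D4:**
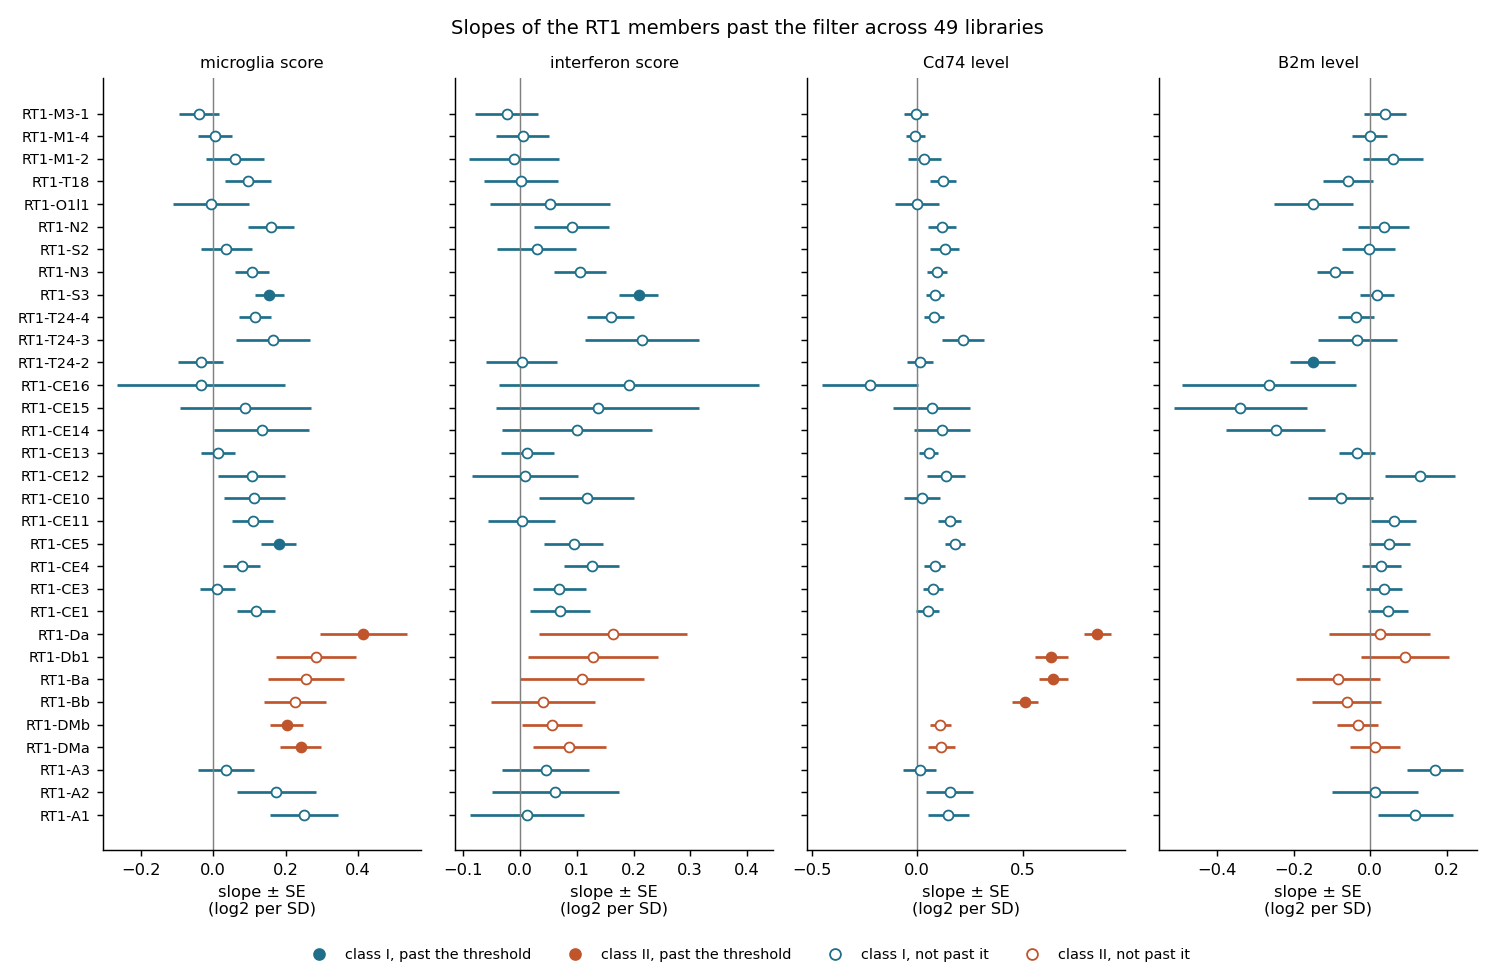
The plot of slopes shows the 32 RT1 members past the filter in order along chromosome 20 (rows) and their slope ± SE in log2(CPM + 1) per SD (horizontal axes, each panel with its own scale) on the microglia score, interferon score, Cd74 level and B2m level in 49 libraries; filled points have an adjusted p under 0.05. RT1-Da, RT1-Db1, RT1-Ba and RT1-Bb stand right of all other members on Cd74, with slopes of 0.51 to 0.85.

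Across the 5 series, 3 of the 32 members differed (limma F test, adjusted p under 0.05), where 1.71% of all genes did. They were RT1-CE5 (adjusted p = 0.00722), RT1-Bb (0.00928) and RT1-Da (0.0273), and 14 members (43.8%) had an unadjusted p under 0.05, as did 14.8% of all genes. The median of RT1-CE5 was 16.99 CPM in series B, 9.74 in C, 9.94 in D, 7.54 in E and 10.8 in F. That of RT1-Da was 7.76 CPM in B, 2.08 in C, 1.53 in D, 1.35 in E and 1.08 in F. That of RT1-Bb was 2.24 CPM in B, 1.32 in C, 0.324 in D, 0.378 in E and 0.310 in F. Series B was highest for all 3, with ranges that overlap other series. The 3 erythroid markers past the filter of a list of 4, Hbb, Hba-a1 and Alas2, also differed between series, at a summed 36.8 to 2093 CPM over libraries, as did the neuropeptide gene Pnoc. Their part in the members' differences was not tested. With Xist and Ddx3y as covariates, RT1-CE5 alone was past the threshold (adjusted p = 0.0365).

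Many pairs of members were correlated across rats, and the share of such pairs was highest under 50 kb. Over the 30 members without separated levels, 114 of 435 pairs were correlated across the 49 libraries (Pearson's r, two-sided permutation test with 100000 permutations, adjusted p under 0.05), 98 with a positive and 16 with a negative r. That is 26.2% of the pairs, and 18.5% of all pairs of genes past the filter had an absolute r as large as the smallest called (0.35). The median absolute r was 0.22 over member pairs and 0.18 over all pairs. Of the 114, 76 had the same sign of r in each of the 5 series.

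By distance, 21 of 38 member pairs under 50 kb apart were correlated (55.3%, median r 0.29). For 16877 pairs of other genes at that distance, 28.1% had an r as large, with a median of 0.12. Between 50 and 500 kb, 17 of 71 member pairs were correlated, with a median r of 0.16, and between 500 and 1000 kb 29 of 104 (0.16). Between 1000 and 2000 kb 34 of 147 were (0.15), and between 2000 and 4000 kb 13 of 75 (0.09). Among the 9 tested pairs whose spans overlap, 6 were correlated, 3 of them negatively. Pairs of 2 class I members were correlated in 88 of 276 cases, pairs of 2 class II members in 7 of 15, and mixed pairs in 19 of 144. Of the class II pairs, all 5 under 50 kb were correlated (median r 0.76) and 2 of 10 further apart. Of the class I pairs, 16 of 33 under 50 kb were (48.5%, median r 0.22) and 13 of 43 between 50 and 500 kb (0.24). Between 500 and 1000 kb 29 of 101 were, between 1000 and 2000 kb 23 of 56 (41.1%, 0.18), and beyond that 7 of 43.

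**Figure D5:**
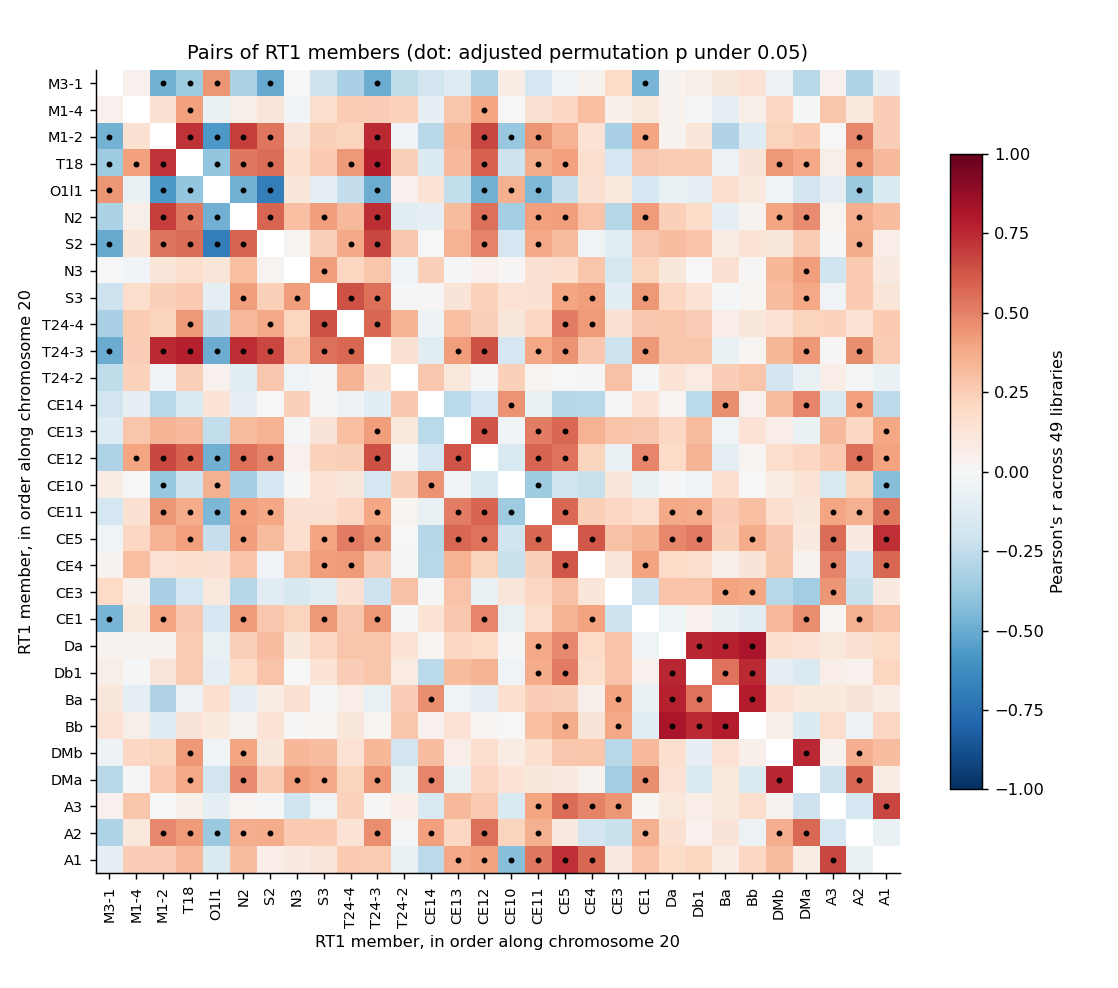
The map of pairs shows Pearson's r across 49 libraries (colour scale, red positive and blue negative) for 30 RT1 members in order along chromosome 20 on both axes; dots mark adjusted permutation p under 0.05. A red square holds RT1-Da, RT1-Db1, RT1-Ba and RT1-Bb (r of 0.54 to 0.81), with a separate pair of RT1-DMb and RT1-DMa (0.76), and the row of RT1-O1l1 is mostly blue.

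Of the 6 highest r, 5 were between class II members. RT1-Da had r = 0.81 with RT1-Bb (rho = 0.75), 0.77 with RT1-Ba (rho = 0.74) and 0.76 with RT1-Db1 (rho = 0.70). RT1-Ba and RT1-Bb had r = 0.79 (rho = 0.82), and RT1-DMb and RT1-DMa, 9.78 kb apart, 0.76 (rho = 0.75). For these pairs the permutation p was 1e-05 for r and for rho, the smallest that 100000 permutations can give, and without the 2 farthest libraries r was between 0.69 and 0.80. Within series r lay between 0.66 and 0.80 for RT1-Da with RT1-Bb, 0.64 and 0.86 with RT1-Ba, 0.44 and 0.79 with RT1-Db1, 0.65 and 0.94 for RT1-Ba with RT1-Bb, and 0.52 and 0.98 for the DM pair. All 6 pairs among the 4 presenting chains were correlated, with r of at least 0.54. None of the 8 pairs of these chains with a DM chain was, with r between -0.14 and 0.16.

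In class I, RT1-T18 and RT1-T24-3, 118 kb apart, had r = 0.78 (rho = 0.69), and RT1-M1-2 and RT1-T18, neighbours among the tested members at 686 kb, 0.72 (rho = 0.75). Within series these were 0.61 to 0.94 and 0.48 to 0.97, and 0.73 and 0.70 without the 2 farthest libraries. The lowest r was that of RT1-O1l1 and RT1-S2, -0.69 (rho = -0.67), and was -0.67 to -0.84 within series; their RefSeq spans overlap by 9842 bases. RT1-O1l1 also had r = -0.58 with RT1-M1-2 (rho = -0.54; permutation tests, adjusted p = 0.0006 and 0.000982; -0.36 to -0.91 within series) and -0.50 with RT1-T24-3 (rho = -0.54; adjusted p = 0.00303 and 0.00154; -0.11 to -0.85). RT1-M3-1 and RT1-S2 had r = -0.50 (rho = -0.53; adjusted p = 0.00233 and 0.00181), negative in 4 of 5 series.

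Picked after their values were seen, RT1-M1-2, RT1-T18, RT1-N2, RT1-S2, RT1-T24-3 and RT1-CE12 were correlated in all 15 pairs among them (r 0.49 to 0.78), and RT1-O1l1 negatively with each of the 6 (r -0.69 to -0.39). These 6 spread over 1.43 Mb between RT1-M1-2 and RT1-CE12 (1428 kb), and RT1-N3 and RT1-T24-2, which lie between them, were in no correlated pair with any of the 6. Among the 6, RT1-M1-2 was listed at 0 in 11 libraries, RT1-S2 in 8 and RT1-N2 in 2, at medians of 0.788, 0.783 and 0.887 CPM. RT1-T18, RT1-T24-3 and RT1-CE12 were above 0 in every library. The 11 libraries at 0 for RT1-M1-2 also lay at 0 to 0.264 CPM for RT1-N2 and 0 to 0.743 for RT1-S2. They lay at 0.0571 to 1.10 CPM for RT1-T18, 0.321 to 3.33 for RT1-T24-3 and 1.67 to 5.47 for RT1-CE12. Medians of those 3 genes over all libraries were 1.43, 6.29 and 5.32 CPM. For RT1-O1l1 the lowest of these libraries were at 0.112 and 2.46 CPM and the highest at 5.92, against a median of 1.22. Values at or near 0, and the same libraries, thus enter many of these r, and their part was not tested. RT1-CE5 and RT1-A1, likewise picked after their values were seen, lie 1423 kb apart on both sides of class II and had r = 0.73 (rho = 0.68), between 0.55 and 0.93 within series. Pairs of a CE gene with an A gene were correlated in 14 of 27 cases, and pairs within the CE genes in 11 of 36.

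RefSeq windows of 250 bases before to 50 after the start were found for 42 of the 48 members. Both strands were searched. The NF-kappaB letters were in 11 of the 42 (9 of 33 class I and 2 of 9 class II) and in 2.18% of all windows. ATTGG was in 31 of the 42, 22 of 33 class I and 9 of 9 class II, and in 37.5% of all windows. The class I members with the NF-kappaB letters included all 3 A genes. Windows of RT1-M6-1 and RT1-M6-2 were 96.03% identical and those of RT1-CE16 and RT1-CE13 88.2%, against a median of 46.8% over the 861 member pairs.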

How the data were processed

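RNA of the RMTg was sequenced, and kallisto 0.48 is the tool named in the submitters' processing notes. Judged by its values, the deposited table holds log2 of an estimated count plus 1 per gene. The genome build of the files is not given in the sources used here. Values were back-transformed, divided by each library's total, scaled to CPM and taken as log2(CPM + 1) (pseudocount 1), without adjustment for length. No 2 of the 49 libraries held identical values.

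Slopes and the F test across series (a gap of over 50000 between identifiers starts a series) were fitted with limma 3.58.1 in R 4.3.3 with a mean trend, on the 18749 genes whose log2 value reached 1 in 20% of libraries or more, with Benjamini-Hochberg adjustment over all of them. Correlations used permutation tests. Fits and tests were tested on simulated data. Promoter windows are from RefSeq (GRCr8).

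Members, lists and tests were chosen with earlier results of these data known. Genes named were RT1-CE14 and RT1-CE15, members with separated levels, the 6 highest and 2 lowest medians per class, the 3 widest and 2 narrowest SDs, members and pathway genes past the threshold, the 6 highest and 4 lowest r, adjacent pairs with r over 0.7 and the 3 most alike genes.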

Additional observations from a re-analysis of the deposited data

How the results depend on the processing

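Totals without the dominant features, a pseudocount of 0.25 and leaving out the library of corrected identifier (1 of the 49 used, of 2 in the labels) took no named member past the threshold or back over it, except RT1-CE5 on Cd74 in the last. A filter at 80% of libraries left RT1-Da, RT1-Bb and RT1-T24-2 untested in every fit. Where a count below has no share of all genes beside it, its change is not read as a result about the members. The number of members differing between series was 1 with Xist and Ddx3y as covariates and 1 with that filter, against 3. On the microglia score it was 3 with series as a covariate (4.59% of all genes) and 2 of 32 without the 2 farthest libraries, against 5; in the second 6.84% of all genes passed, so the members' share was no higher there. On the interferon score it was 2 without the 2 farthest (0.096% of all genes), against 1. On Cd74 it was 1 with the filter at 80%, which left 17 members and, of the 4 chains, tested RT1-Db1 alone. On B2m it was 0 with series as a covariate, 0 with no filter and 0 with the filter at 80%, and 2 without the 2 farthest and 2 with median ratio scaling, against 1, the second being RT1-A3 (0.28 and 0.22). The slope of RT1-Da on the microglia score was past the threshold neither with log10 total as a covariate (adjusted p = 0.0821) nor with median ratio scaling (0.0758) nor without a filter (0.0797). Correlated pairs numbered 36 of 105 with the filter at 80%, 100 with values centred within series, 110 of 406 without RT1-CE14 (chosen after seeing the data), and between 105 and 150 under the other alternatives in the 49 libraries.

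In the 32 libraries of high LOC120093067 and Zfp532 share, with 27 members tested, members past the threshold numbered 8 on the microglia score (63.6% of all genes), 9 on the interferon score (67.8%), 4 on Cd74 (22%) and 8 on B2m (62.6%). There 0 of the 27 members had separated levels, where 1.02% of all genes did, and 38 of 300 pairs were correlated. The slope of RT1-Da on the microglia score was -0.0049 there, and r of RT1-T18 and RT1-T24-3 was -0.17. The causes were not tested. Depth limits members of low counts: in the 49 libraries a member at 0 may have up to 0.0598 to 0.314 CPM, counting error only. No paired analysis was possible because the samples form a single group.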

Other observations

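In the 32 libraries of high LOC120093067 and Zfp532 share, the RT1 members together took 0.00558% to 0.0820% of the counts, with a median of 0.0229%, against a median of 0.0235% in the 49 libraries used. Between 23 and 37 members were above 0 in a library there. The median of RT1-A2 was 48.3 CPM and that of RT1-A3 45.8 CPM in these libraries, against 23 and 12.8 CPM in the 49. RT1-S3 had a median of 2.99 CPM in them against 17 CPM, and RT1-DMa 2.47 CPM against 29.4 CPM. In the 11 libraries of high Nif3l1 share, 1 to 16 members were above 0, and the members took at most 0.000555% of the counts. These libraries also had lower totals, of 2.29 to 13.7 M and 1.72 to 8.43 M, and no test was made between the kinds of library.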
